A study of Mus musculus with 6 samples.

Results

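Gastrulation and mesoderm genes were read in mouse embryonic stem (ES) cells that had been kept under conditions for undifferentiated growth. The 10 genes Wnt3, Fgf8, Kdr, Mixl1, Gsc, Evx1, Mesp1, Tbx6, Foxf1 and Hand2 were chosen by symbol. Every probe set that the table of the array assigns to a single one of these symbols was taken, which gave 13 of the 45037 non-control probe sets. The 10 genes are among 18193 genes with a probe set of their own. Foxf1 has 2 probe sets, Hand2 has 3 and each of the other 8 genes has 1.

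The arrays came from 3 clones, A3, A4 and A5, of mouse ES cells derived from the line EBRTcH3. Each clone carried the human GTF2IRD2 coding sequence with a 3xFLAG tag at the ROSA26 locus, under a promoter that tetracycline represses. The human gene is a TFII-I family member from the chromosomal region affected in Williams-Beuren syndrome. The paper names its longest annotated coding sequence. The insert printed in the paper's supplement is far shorter than those of GTF2I and GTF2IRD1, so a full-length protein cannot be assumed. The uninduced group was grown with tetracycline (0 h) and the induced group for 24 h without it, both in medium with serum and leukemia inhibitory factor, which holds ES cells in self-renewal. Each clone gave 1 array per group, so each group held 3 arrays. All 6 arrays carry the transgene, and none comes from a line without it or is labelled as 24 h with tetracycline. Removal of tetracycline, the time of sampling and expression of the transgene thus cannot be told apart. The probe sets are for mouse transcripts and need not detect the human sequence, so how far it was induced was not measured here. The paper's RT-PCR time courses give a higher transgene level at 24 h than at 0 h in each of A3, A4 and A5. The p-values measure the spread between these clones and cultures. Array medians lay between 5.03 and 5.06 on the log2 scale.

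In the gastrulating mouse embryo, epiblast cells pass through the primitive streak and become mesoderm and definitive endoderm. Wnt3 and Fgf8 are secreted signals of that step, and transcription factors such as Mixl1, Gsc and Evx1 are switched on in different parts of the streak. Mesp1 and Tbx6 then mark cardiac and paraxial mesoderm precursors, Foxf1 and Hand2 lateral plate mesoderm, and Kdr, the receptor for vascular endothelial growth factor (Vegf), the mesoderm that gives rise to blood and vessels. These genes are commonly used to detect differentiating cells in ES cell cultures.

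The promoters of 7 of the 10 genes were in the RefSeq promoter table (GRCm38.p6). The 250 bases before the start of transcription are printed for 3 genes: Mesp1, the only member above the limit of detection, described below, on every array; Kdr, the member whose level varied most between clones; and Gsc, which was among the lowest signals relative to that limit. Capitals mark CG dinucleotides, the sites of DNA methylation in mammals.
Mesp1, chromosome 7, chr7:79793591-79793840, minus strand: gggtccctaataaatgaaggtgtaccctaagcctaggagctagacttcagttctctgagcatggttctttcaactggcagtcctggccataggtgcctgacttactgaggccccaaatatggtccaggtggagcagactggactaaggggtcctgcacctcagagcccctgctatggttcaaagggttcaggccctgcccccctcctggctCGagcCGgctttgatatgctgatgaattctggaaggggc
Kdr, chromosome 5, chr5:75978456-75978705, minus strand: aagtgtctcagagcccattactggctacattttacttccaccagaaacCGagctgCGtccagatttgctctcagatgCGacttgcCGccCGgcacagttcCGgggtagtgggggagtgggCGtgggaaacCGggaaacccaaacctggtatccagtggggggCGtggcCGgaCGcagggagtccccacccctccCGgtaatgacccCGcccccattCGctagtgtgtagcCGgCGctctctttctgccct
Gsc, chromosome 12, chr12:104473237-104473486, minus strand: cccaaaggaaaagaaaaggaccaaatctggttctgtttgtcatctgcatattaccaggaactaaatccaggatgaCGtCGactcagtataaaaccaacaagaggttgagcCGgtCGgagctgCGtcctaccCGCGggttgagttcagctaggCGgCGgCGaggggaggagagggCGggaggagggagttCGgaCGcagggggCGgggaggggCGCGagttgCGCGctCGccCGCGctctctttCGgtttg

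The 3 windows differ in CG content. The Mesp1 window held 2 CG, the Kdr window 16 and the Gsc window 22. Over the 7 members the median was 15 CG per window (range 2 to 22), against 6 over all 32851 promoters of the table. The ratio of observed to predicted CG was at least 0.6 in 5 of the 7 windows and in 34% of all promoters. A TATAAA sequence, searched on both strands, lay in the windows of Gsc and Tbx6 (2 of 7) and in 12.4% of all promoters. These counts describe the letters of the windows, and DNA methylation was not measured.

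Mesp1 was the only member above the limit of detection on all 6 arrays, a call that depended on the limit chosen. The background was set on each array by 86 probe sets of olfactory, vomeronasal and taste receptor genes, which serve in sensory organs and stand in for silent genes. The limit of detection was the 95th percentile of these probe sets on the same array, and it lay between 5.35 and 5.47 (log2). By this limit 1 of the 13 probe sets was detectable, while 42% of all probe sets were. Counted by genes at their brightest probe set, 1 of 10 members and 57% of all genes were detectable. Kdr exceeded the limit on 4 arrays, both of A4 and both of A5, and lay below it on both A3 arrays. The other 11 probe sets were below the limit on every array. With the 99th percentile as the limit 0 probe sets were detectable, and with a mean of at least 5 as the limit 3 were. A probe set at background can hide a difference, so the differences given below for these 11 describe what the array could read and need not follow the transcript. In RNA from a whole culture, fewer cells of a type and less RNA per cell cannot be told apart.

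**Figure D1:**
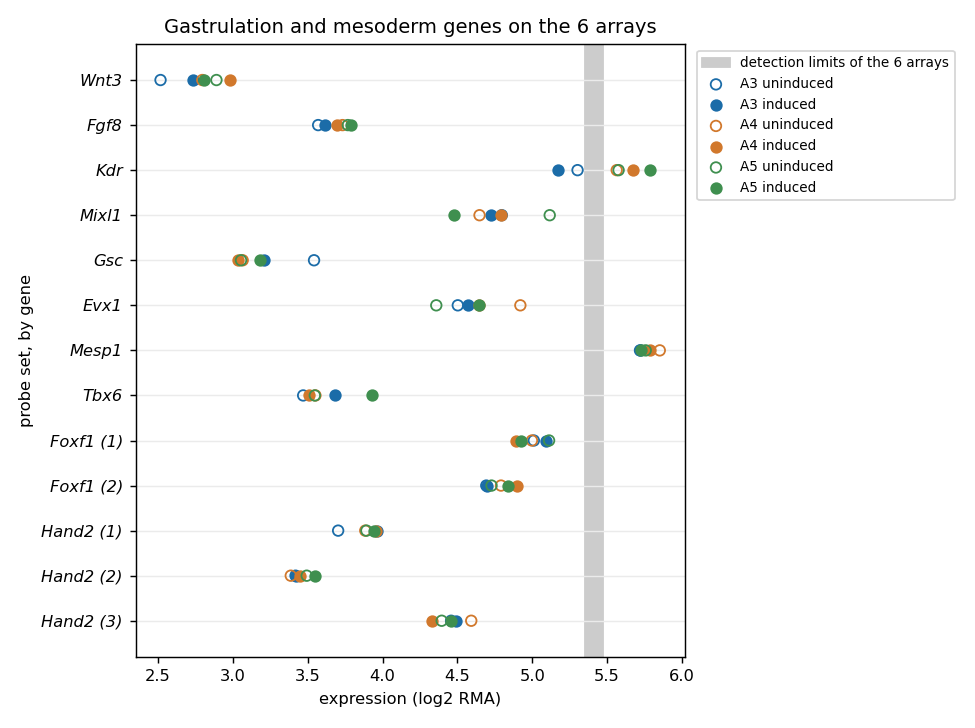
Expression of the 13 probe sets (log2 RMA, horizontal axis) on each of the 6 arrays, with open symbols for uninduced and filled symbols for induced cultures, coloured by clone. The grey band spans the limits of detection, 5.35 to 5.47. Mesp1 lies to the right of it on all arrays and Kdr on the A4 and A5 arrays, and the numbered Foxf1 and Hand2 probe sets follow the order of the text.

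Markers of ES cells were read at high levels. All 10 ES cell markers of a fixed list, among them Pou5f1, Nanog and Sox2, were detectable on every array, and their mean level was 11.84 to 11.91 on the uninduced and 11.83 to 11.92 on the induced arrays. Of 7 definitive endoderm markers 1 was detectable (Hhex), and the endoderm factors Sox17 and Foxa2 were above the limit on 0 arrays. Of 9 fibroblast and feeder markers 2 were detectable, Thy1 and Vim, and the collagen genes Col1a1, Col1a2 and Col3a1 were above the limit on 0 arrays. Other lists had more: 5 of 8 trophoblast markers, 5 of 7 primed epiblast markers and 3 of 6 neural markers were detectable. Among the trophoblast markers these were Eomes, Tfap2c, Krt8, Krt18 and Ascl2, while Cdx2, Elf5 and Hand1 were above the limit on 0 arrays.

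None of the members passed the test between induced and uninduced cultures. With limma, 0 of 13 probe sets had an adjusted p under 0.05 (each adjusted p = 1.00), and 0% of all 45037 probe sets were called. At an unadjusted p under 0.05, 0 members and 3.12% of all probe sets (1404) were counted. Differences of the members ran from -0.19 to 0.18 on the log2 scale, with 8 above and 5 below 0 and a median of 0.03, where all probe sets had a median of -0.0037 and an interquartile range of -0.06 to 0.05. The 95% interval of the difference excluded a 1.5-fold change of the reading in either direction for 13 of 13 probe sets. For probe sets below the limit of detection on every array, such an interval need not hold for the transcript. The widest bounds were 0.712-fold for Mixl1 and 1.35-fold for Tbx6.

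Wnt3, a secreted ligand required to form the streak, was read by probe set 1450763_x_at, a type of probe set that may also bind related transcripts. Its log2 values before induction were 2.52 (A3), 2.79 (A4), 2.89 (A5), and after it 2.73, 2.98 and 2.81. The groups overlapped, with the A3 uninduced culture lowest. The means were 2.73 ± 0.19 and 2.84 ± 0.13 (SD, n = 3), a difference of 0.11 ± 0.11 (SE; 95% interval -0.15 to 0.36). Within clones, A3 differed by 0.22, A4 by 0.18 and A5 by -0.08.

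Fgf8, a growth factor needed for cells to leave the streak, was read by 1451882_a_at. Its values were 3.57, 3.73 and 3.77 in uninduced A3, A4 and A5 and 3.61, 3.69 and 3.79 in the induced cultures. Clones kept the same order in both groups, A3 lowest and A5 highest, and the group difference was 0.01 ± 0.08 (95% interval -0.18 to 0.20).

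Kdr, the Vegf receptor, was read by 1449379_at. Uninduced A3, A4 and A5 had values of 5.30, 5.57 and 5.58, and induced ones 5.17, 5.68 and 5.79. Both A3 cultures were below every A4 and A5 culture. The group means of 5.48 ± 0.15 and 5.54 ± 0.33 (SD, n = 3) differed by 0.06 ± 0.16 (SE; 95% interval -0.30 to 0.42), where A3 differed by -0.13, A4 by 0.11 and A5 by 0.21.

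Mixl1, a homeodomain factor of the streak, had the largest negative difference (1421505_at). Uninduced A3, A4 and A5 read 4.80, 4.65 and 5.12, and induced ones 4.73, 4.79 and 4.48. The A5 clone held both the highest and the lowest value. The difference of the means, 4.85 ± 0.24 and 4.67 ± 0.17, was -0.19 ± 0.13 (95% interval -0.49 to 0.11), to which A3 contributed -0.07, A4 0.14 and A5 -0.64. Without both A5 arrays it was 0.04. The array also has probe sets for control transcripts with poly-A tails, and whether these were added to the RNA is not stated. These probe sets averaged 5.71 to 6.46 over the arrays, where the limits of detection were 5.35 to 5.47. They differed between the A5 arrays by 0.44 induced minus uninduced, against 0.29 in A3 and 0.08 in A4. Their part in the Mixl1 values was not tested.

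Gsc, which encodes the homeodomain repressor goosecoid of the anterior streak, was read by 1421412_at. It had values of 3.54, 3.06 and 3.05 in uninduced A3, A4 and A5, and of 3.21, 3.03 and 3.18 in induced ones. The uninduced A3 culture stood above the other 5, and without that array the difference of -0.08 ± 0.13 became 0.08. Evx1, a homeobox gene of the posterior streak (1421627_at), had values of 4.50, 4.92 and 4.36 uninduced and 4.57, 4.64 and 4.64 induced. All 3 induced cultures of Evx1 lay inside the uninduced range, and the difference was 0.03 ± 0.13. In A4 Evx1 differed by -0.28 and in A5 by 0.28.

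Mesp1, a transcription factor of the earliest cardiac mesoderm, varied least across the arrays (1426557_at). A3, A4 and A5 read 5.72, 5.85 and 5.76 before and 5.72, 5.79 and 5.73 after induction. The lowest and the highest of the 6 arrays were 0.13 apart, the narrowest range among the members. The means were 5.78 ± 0.07 and 5.75 ± 0.04 (SD, n = 3), and the difference was -0.03 ± 0.07 (SE; 95% interval -0.19 to 0.13), or 0.978-fold. A3 differed by -0.0019, A4 by -0.07 and A5 by -0.03, all below 0.

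Tbx6, a T-box factor that directs cells to paraxial mesoderm, had the largest positive difference (1449868_at). Its values were 3.47, 3.55 and 3.55 in uninduced A3, A4 and A5 and 3.68, 3.51 and 3.93 in induced cultures. The induced A5 culture was highest, and the induced A4 culture lay among the uninduced ones. The means of 3.52 ± 0.05 and 3.71 ± 0.21 differed by 0.18 ± 0.11 (SE; limma adjusted p = 1.00), where A3 gave 0.21, A4 -0.04 and A5 0.39. Without induced A5 the difference was 0.07, and without induced A4 it was 0.28.

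Foxf1, a forkhead factor of lateral plate and visceral mesoderm, gave differences of opposite sign at its 2 probe sets. The first, 1423013_at, had values of 5.01, 5.00 and 5.11 in uninduced and 5.09, 4.89 and 4.93 in induced A3, A4 and A5, a difference of -0.07 ± 0.08. The second, 1434939_at, had values of 4.69, 4.79 and 4.73 uninduced and 4.69, 4.90 and 4.84 induced, a difference of 0.07 ± 0.08. Both intervals included 0.

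Hand2, a basic helix-loop-helix factor of heart and limb mesoderm, held the only probe set whose groups did not overlap. At the first, 1422221_at, uninduced A3, A4 and A5 had 3.70, 3.88 and 3.89, and the induced cultures 3.96, 3.96 and 3.94. All 3 induced values were above all 3 uninduced values, which held for 1 of 13 member probe sets and in either direction for 7.95% of all probe sets. The difference was 0.13 ± 0.08 (limma adjusted p = 1.00), of which A3 gave 0.26, A4 0.07 and A5 0.05. Without uninduced A3 it was 0.065. The other probe sets, 1436041_at and 1443854_at, ranged from 3.39 to 3.55 and from 4.33 to 4.59 over the 6 arrays and differed by 0.04 ± 0.07 and -0.05 ± 0.08, with overlapping groups.

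**Figure D2:**
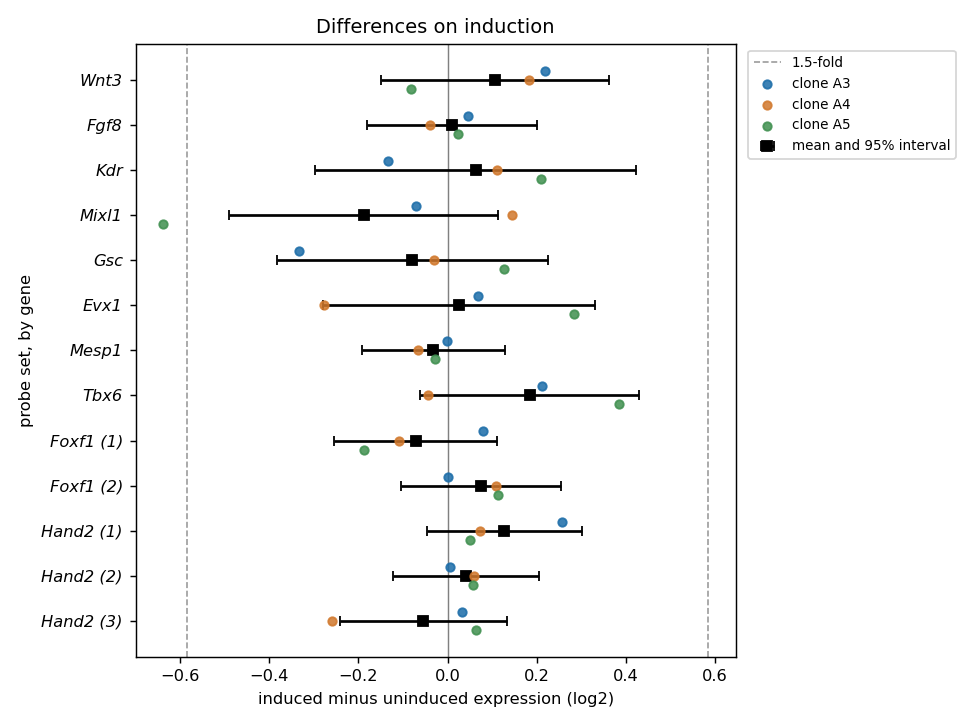
Induced minus uninduced expression (log2, horizontal axis) for the 13 probe sets. Coloured points are the clones' own differences, black squares the mean difference and bars its 95% interval from limma (n = 3 per group), and dashed lines mark 1.5-fold. All bars cross 0 and none reaches a dashed line, and the only point beyond 1.5-fold is Mixl1 in A5, at -0.64.

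Within clones the members did not share a direction. The median of their own differences for A3, A4 and A5 was 0.03, -0.03 and 0.06, and 9, 6 and 9 of the 13 were above 0. The sign was the same in all 3 clones for 4 of 13 probe sets, those of Mesp1, 1 of Foxf1 and 2 of Hand2, and for 25.9% of all probe sets. Of the 39 own differences, 7 were larger than 0.25 in size, and they belonged to Mixl1, Gsc, Evx1 (2 of them), Tbx6 and Hand2 (2 of them).

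Among the members, the clone means of Kdr spanned the widest range. The means of A3, A4 and A5, over 2 arrays each, were 5.24, 5.62 and 5.68 for Kdr, so A3 was lowest. A4 exceeded A3 by 0.38 ± 0.10 (SE; adjusted p = 0.0989 in limma) and A5 exceeded A3 by 0.45 ± 0.10 (adjusted p = 0.0894), while A5 minus A4 was 0.06 ± 0.10 (adjusted p = 0.932; 95% interval -0.17 to 0.30). In these contrasts, 0 of 13 members were called, against 2.94% of all probe sets for A4 minus A3, 1.68% for A5 minus A3 and 0.0511% for A5 minus A4. With limma's F-test of the clone term, Kdr had an adjusted p of 0.114, and 0 of 13 members were called where 2.18% of all probe sets were. At an unadjusted p under 0.05 it was the only member counted (1 of 13), against 15% of all probe sets. When the test was limited to probe sets averaging at least 5, the adjusted p of Kdr was 0.0406. The poly-A control probe sets averaged 6.32 in A3, 6.07 in A4, 5.93 in A5, and their part in the Kdr values was not tested.

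The other members had clone means that lay closer together. In the order A3, A4, A5, Gsc had 3.37, 3.05 and 3.12 (F-test adjusted p = 0.335), so A3 was highest. Evx1 had 4.54, 4.78 and 4.50 (adjusted p = 0.463), with A4 highest, and Wnt3 had 2.62, 2.89 and 2.85 (adjusted p = 0.364), with A3 lowest. Tbx6 had 3.58, 3.53 and 3.74 and Fgf8 had 3.59, 3.71 and 3.78, with adjusted p of 0.562 and 0.485. For Mixl1 the means were 4.76, 4.72 and 4.80, and for Mesp1 5.72, 5.82 and 5.74, with adjusted p of 0.965 and 0.777. The Foxf1 probe sets spanned 0.11 and 0.15 between their lowest and highest clone mean and those of Hand2 0.05 to 0.10. The median span of the 13 probe sets was 0.15, and that of all probe sets 0.14. A3 was the lowest clone for 6 probe sets, A4 for 5 and A5 for 2.

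The genes whose values followed Kdr most closely across the 6 arrays were named by Pearson correlation among the 2478 singly named probe sets that averaged at least 5 and spanned at least 0.5. They were Baiap2l1 (r = 0.989), Scarb1, the receptor for high-density lipoprotein (0.987), Srxn1, an antioxidant enzyme (0.983), Mael, a germline gene of the piRNA pathway (0.982), and Fam120b (0.981). The 6 arrays are pairs from 3 clones, so these coefficients describe in part a shared order of clones. Within clones, these genes also shared the signs of Kdr, lower in induced than in uninduced A3 and higher in induced A4 and A5. In A3, A4 and A5 the clone means were 7.34, 7.85 and 7.93 for Srxn1 and 6.19, 6.63 and 6.76 for Fam120b. Both were lowest in A3, an order fixed by the choice of genes. Srxn1 and Fam120b passed the F-test between clones (adjusted p = 0.0423 and 0.0380), and Baiap2l1, Scarb1 and Mael did not (adjusted p = 0.172, 0.210 and 0.0675).

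Around the members, 7 lists of streak and mesoderm genes held 109 genes, of which 105 had a probe set and 57 were detectable. The listed genes without a probe set were not analysed here. Between induced and uninduced cultures 0 of the 105 passed the test, with 48 differences above 0 and a median of -0.0049, against -0.0028 for all genes at their brightest probe set. At an unadjusted p under 0.05 there was 1 gene, Dkk1, a secreted Wnt antagonist. Dkk1 had values of 4.15, 4.26 and 4.30 in uninduced and 4.51, 4.38 and 4.53 in induced A3, A4 and A5, a difference of 0.24 ± 0.08 (SE; limma adjusted p = 1.00). It was higher in 3 of 3 induced clones and below the limit of detection on all arrays.

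The share of detectable genes ran from 2 of 16 to 12 of 14 over these lists. Fgf receptors and targets were detectable in 12 of 14 genes, Wnt receptors and targets in 11 of 15 and Vegf and blood vessel genes in 13 of 20, beside 57% of all genes. Streak signals and antagonists were detectable in 8 of 15, among them Nodal and its coreceptor gene Tdgf1. Of the other streak transcription factors 5 of 12 were detectable, Eomes, Mesp2, Msgn1, Evx2 and Foxh1, and of paraxial mesoderm genes 6 of 13. Lateral plate and heart mesoderm genes were detectable in 2 of 16, the cardiac factor Nkx2-5 and the atrial myosin light chain Myl7. The Vegf ligand genes Vegfa, Vegfb and Vegfc were detectable, and Vegfd was above the limit on 0 arrays. The other Vegf receptor genes Flt1 and Flt4 were detectable at the brightest of their 4 and 2 probe sets, where Kdr has only 1. Some of these calls depended on the limit, which was 5.91 to 6.16 at the 99th percentile. Foxh1 and Myl7 were above that limit on every array. Eomes was below it on both A3 arrays, Evx2 on these and on uninduced A4, and Mesp2 on every array but induced A5. Msgn1, Nkx2-5, Flt1 and Flt4 were below it on every array. The counts were not tested against each other.

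**Figure D3:**
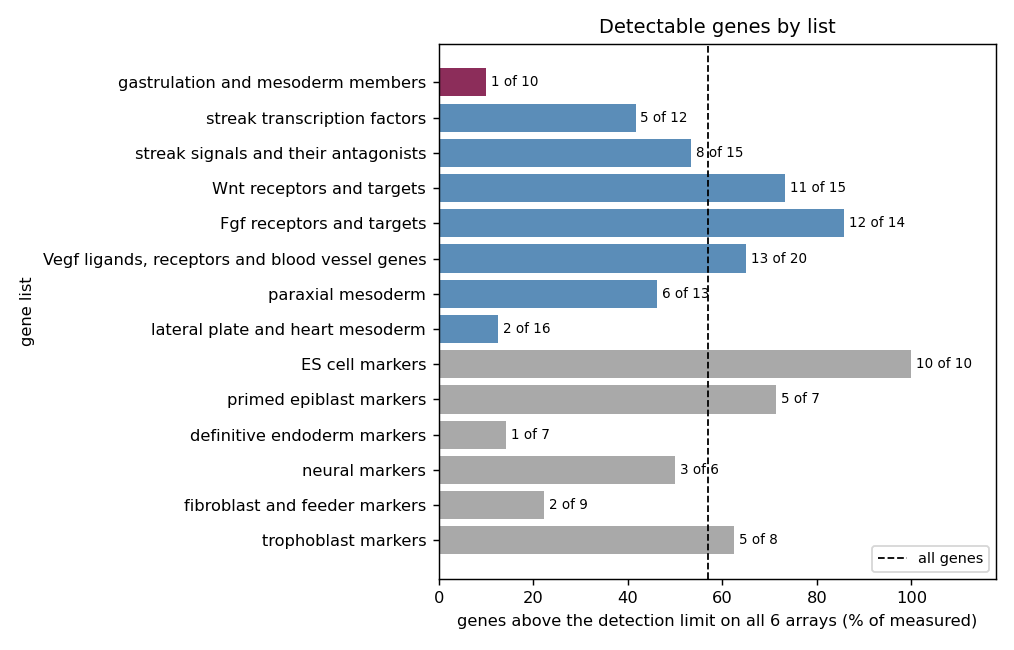
Percent of measured genes above the limit of detection on all 6 arrays (horizontal axis, from 0), by gene list, with counts beside the bars. The 10 members are at the top, streak and mesoderm lists in blue and other cell type markers in grey, and the dashed line is the 57% of all genes. The members (1 of 10) and lateral plate genes (2 of 16) have the shortest bars of the mesoderm group, and all 10 ES cell markers were detectable.

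The named genes of the pathway lists had differences on induction of up to 0.31 in size. Among Wnt genes, Lef1, a nuclear mediator of the pathway, differed by 0.19 ± 0.09 and Lrp6, a coreceptor, by -0.15 ± 0.09. Among Fgf genes, the receptor Fgfr1 differed by -0.16 ± 0.09 and Fgfr4 by -0.11 ± 0.08. In the streak lists Wnt3a differed by -0.19 ± 0.11, Fgf17 by -0.17 ± 0.08 and the caudal factor Cdx2 by -0.17 ± 0.10. In the Vegf and vessel list Pdgfra, a receptor of mesodermal cells, differed by 0.31 ± 0.14, where A3 gave 0.51, A4 0.33 and A5 0.09, and Tal1, a blood cell factor, by -0.19 ± 0.09. In the paraxial list Hes7, an oscillating repressor of somite formation, differed by -0.16 ± 0.08, and in the lateral plate list Tbx5, a cardiac T-box factor, by -0.19 ± 0.11. None of these passed the test (each adjusted p = 1.00 in limma). Pdgfra, Tal1, Hes7 and Cdx2 were above the limit of detection on 0 arrays and Tbx5 on 1, so their differences are readings at background.

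Clones differed in 10 of the 105 listed genes (9.52%), where 3.09% of all genes at their brightest probe set passed the F-test. The lists were chosen with earlier results of these data known, and the shares were not tested against each other. Among streak transcription factors 2 of 12 passed, and among streak signals and antagonists 3 of 15. The T-box factor Eomes averaged 6.01, 6.88 and 6.64 in A3, A4 and A5 (adjusted p = 0.0107), and Lefty2, a secreted Nodal antagonist, had 7.37, 8.46 and 7.99 (adjusted p = 0.0035). Bmp4, a growth factor that induces mesoderm, had 9.64, 10.23 and 10.29 (adjusted p = 0.0111). Each of these 3 was lowest in A3. Markers of other cell types moved with the clones too. Of 8 trophoblast markers 4 passed the F-test: Eomes itself, Tfap2c with 8.32, 9.42 and 9.10 in A3, A4 and A5, Krt18 with 6.53, 7.07 and 7.11, and Ascl2 with 7.73, 6.97 and 6.86 (adjusted p = 0.0023, 0.0469 and 0.0063 for the last 3). The mean level of the 8 markers was 6.19 to 6.39 on the uninduced and 6.10 to 6.51 on the induced arrays. Of 7 primed epiblast markers Otx2 passed, with 5.62, 6.25 and 5.78 (adjusted p = 0.0321). Their part in the clone differences of streak and mesoderm genes was not tested.

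In the Wnt list 1 of 15 genes passed, in the list of Fgf receptors and targets 3 of 14, and in the Vegf and vessel list 1 of 20. Porcn, the enzyme that acylates Wnt ligands, had clone means of 8.16, 8.89 and 8.95 in A3, A4 and A5 (adjusted p = 0.0061). The Fgf targets Dusp6, Etv4 and Dusp4 were lowest in A3, while Spry1, Spry2, Spry4, Spred1, Spred2 and Etv5 did not pass. The values were 8.93, 9.23 and 9.49 for Dusp6, 9.13, 9.44 and 9.75 for Etv4 and 5.24, 5.85 and 5.74 for Dusp4 (adjusted p = 0.0299, 0.0402 and 0.0491). The growth factor Fgf4 went the other way, with 10.16, 9.65 and 9.69 (adjusted p = 0.0287). So did Snai1, a factor of epithelial to mesenchymal transition, with 5.66, 5.17 and 5.25 (adjusted p = 0.0436), and Tek, the angiopoietin receptor gene, with 6.37, 5.69 and 5.65 (adjusted p = 0.0206). Snai1 was above the limit of detection on 2 arrays, both of A3, and Dusp4 on 4, both of A4 and both of A5. The other streak and mesoderm genes that passed were above it on all 6.

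A3 was thus the lowest clone for 7 of the 10 genes and the highest for 3. A4 minus A3 and A5 minus A3 passed the test for 8 genes each and A5 minus A4 for 0. Fgf4 was called at 2 of its 4 probe sets and Etv4 at 1 of 2. Fzd2 and Gata6 were not called at their brightest probe set, and each was called at 1 of 3. Of the 10 genes, 0 passed when both A3 arrays were left out, which leaves A4 and A5 to compare. Over the 105 listed genes with 1 array left out, 1 passed without induced A3, 4 without uninduced A3, 5 without uninduced A4 and 6 without any 1 of the other 3 arrays. Of the 10 members 0 belonged to the called genes, a count beside which 3.09% of all genes passed.

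**Figure D4:**
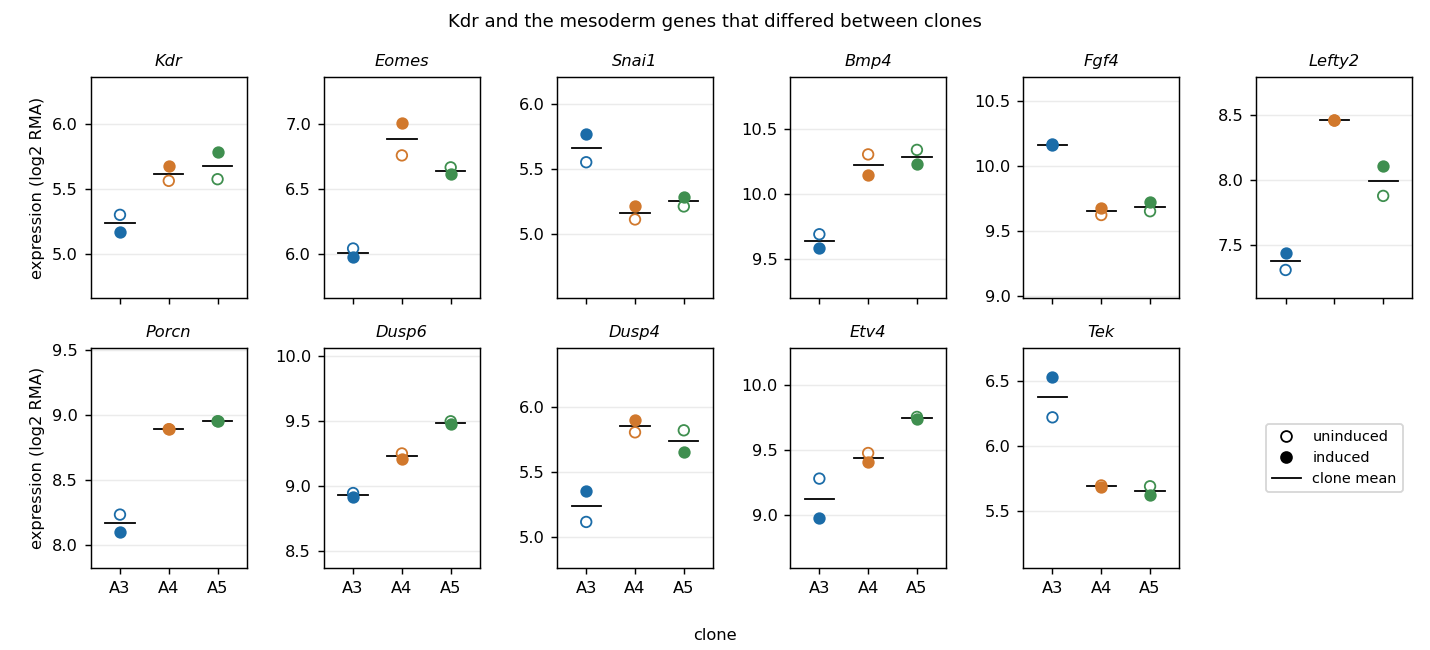
Expression (log2 RMA, vertical axis, each panel with its own range) of Kdr and of the 10 listed mesoderm genes that passed the F-test between clones. Open circles are uninduced and filled circles induced cultures, and lines are clone means (2 arrays each). A3 has the lowest clone mean in Kdr and 7 of the other genes and the highest in Snai1, Fgf4 and Tek, and in Dusp6 and Etv4 A4 lies about midway between A3 and A5.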

How the data were processed

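Total RNA of the 6 cultures was hybridized to Affymetrix mouse whole-genome arrays. The deposited values are log2 expression values per probe set, which the authors made with the robust multiarray average (RMA) in the affy package of Bioconductor; versions and a genome build are not given in the sources used here. The array holds 45101 probe sets, of which 64 controls were set aside. Genes were named from the platform annotation, where 34945 probe sets have 1 symbol, 932 have several and 9160 lack one. The number of arrays limits the precision.

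Groups and clones came from the sample labels. Differences were tested over all 45037 probe sets with limma 3.58.1 in R 4.3.3 (lmFit, eBayes, two-sided, Benjamini-Hochberg, threshold 0.05). The methods name a t-test and state no pairing, so the induction fit has no block and its SE includes the spread between clones. Clones were compared by the moderated F-test of the clone term with induction in the model. The numbers in the labels pair the arrays by clone. Deviations from group means correlated at 0.524, 0.376 and 0.210 for arrays of the same clone A3, A4 and A5, and at -0.407 to 0.0689 across clones. Limma was tested on simulated data, where it made more false calls than its nominal rate, which bears on calls near the threshold.

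Alternatives were a clone block, the methods' t-test, an intensity trend, no induction term for clones, repeated centring or quantile normalization, gene means over probe sets, a filter on means under 5, other limits of detection and leaving out arrays. Named genes were all members and, per list, up to 3 genes with the smallest p of induction and 3 of the clone term, at the brightest probe set, of which those printed are a selection; other genes named as detectable or not were picked after their values were seen. The members and lists were chosen with earlier results of these data known. The promoter sequences are RefSeq's (GRCm38.p6), and genes without an entry in the tables were not analysed here.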

Additional observations from a re-analysis of the deposited data

How the results depend on the processing

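Counts of probe sets called for induction were 0 under every alternative run, the replicate block included (smallest member adjusted p with the block 0.843). The block changed no call, and at an unadjusted p under 0.05 it counted 0 members and 2597 of all probe sets. With the block the SE of the difference was 0.084 for Kdr (0.158 without it), 0.095 for Gsc (0.133) and 0.082 for Wnt3 (0.112). It was larger with the block only for Mixl1 (0.134 against 0.132) and the third Hand2 probe set (0.084 against 0.082). The methods' t-test, run here without pairing, counted 0 members and 1681 probe sets at that level, and 0 after Benjamini-Hochberg adjustment. The clone term was called for 980 probe sets, for 2641 with an intensity trend, for 1885 with means of at least 5, and for 26 to 1427 when arrays were left out. The count was 26 without both A3 arrays, 248 without induced A3, 413 without uninduced A3 and 633 without uninduced A4. Of the members, 1 was called for the clone term with means of at least 5, and 0 under the other alternatives. Where 1 array of a clone was left out, its lone array was assumed to vary like the others. The adjusted p of Kdr ran from 0.0856 to 0.938 with arrays left out. The listed mesoderm genes called for the clone term numbered 10. They numbered 13 with gene means over probe sets, 15 with means of at least 5, 16 with an intensity trend and 0 to 10 with both arrays of a clone left out. Detectable members numbered 1, then 3 with a mean of at least 5 as the limit, 0 with the 99th percentile and 2 with means over arrays.

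Leaving out arrays turned the sign of 8 small differences, none of them called. The ranges were -0.10 to 0.19 for Evx1, -0.050 to 0.053 for Fgf8, -0.18 to 0.081 for Gsc, -0.11 to 0.048 for the third Hand2 probe set, -0.058 to 0.25 for Kdr, -0.061 to 0.0053 for Mesp1, -0.36 to 0.037 for Mixl1 and -0.0024 to 0.20 for Wnt3. The cause of these shifts was not tested beyond the fewer arrays in each fit. Tbx6, both Foxf1 and the other two Hand2 probe sets kept their sign in these fits. Signal over background limits 11 of the 13 probe sets.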
